A study of Mus musculus with 6 samples.

Results

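The receptor chains and Janus kinases of the common gamma chain cytokines were examined in mouse CD4 T cells that carried a retrovirus for Blimp-1 or the empty virus. The members are 10 genes, set by name: the receptor genes Il2ra, Il2rb, Il2rg, Il4ra, Il7r, Il9r, Il15ra and Il21r and the kinase genes Jak1 and Jak3. All 10 were found among 22655 genes of the deposited table, as 20 of its 29868 RefSeq transcripts. The table's own symbol matched 8 of them. Il4ra and Jak1 are listed there under other symbols and were matched by RefSeq accession, as were 7 of the 9 transcripts of Il15ra, which carry no symbol.

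There were 3 libraries per vector, from wild-type cells of the C57/BL6 strain. Naive cells (CD4+ CD44lo CD62L+ CD25neg) were purified by sorting from spleen and lymph node, so they lacked surface CD25, the product of Il2ra, at the start. They were activated for 36 hours on plate-bound antibodies to CD3 and CD28 (10 ug/ml) while antibodies neutralised IFN-gamma and IL-4, and were then transduced with empty MigR1 or with MigR1 carrying Blimp-1 cDNA. GFP+ cells were sorted after 2 days more. Both groups therefore share activation, cytokine blockade, viral infection and GFP, and differ by the Blimp-1 insert. The sources used here do not give the ages of the mice or say whether animals were pooled.

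The common gamma chain, encoded by Il2rg, is a subunit of the receptors for IL-2, IL-4, IL-7, IL-9, IL-15 and IL-21. Each receptor also has another chain that signals, and that chain and the gamma chain bring JAK1 and JAK3 together. These kinases phosphorylate STAT proteins and above all STAT5 in T cells. IL-7 sustains naive T cells, which express its receptor; antigen stimulation lowers that receptor and induces the high-affinity chain for IL-2. Prdm1, which encodes the repressor Blimp-1, is itself induced by IL-2, and the series title names opposition between Blimp-1 and STAT5 targets, which is the reason to ask what happens to the receptors above STAT5.

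Values are in FPKM, reads scaled to transcript length and library size, and show shares of the messenger RNA pool. In sorted bulk cells, fewer cells expressing a gene and less RNA per cell cannot be told apart. In replicates 1, 2 and 3, depth estimated from the lowest values was 18.0, 38.4 and 17.1 M reads with empty MigR1. It was 42.5, 45.95 and 33.7 M with Blimp-1, deeper than the empty vector library of the same number each time. The part of depth in the differences between vectors was not tested. One FPKM on a transcript of 1 kb therefore stood for about 17.1 reads in the shallowest library, empty vector replicate 3. That library also stood apart on the first principal component, at -33.7 against -12.6 to 22.7 for the other 5 libraries. Prdm1, read first as a check of the labels, was at 0.996, 2.03 and 1.38 FPKM with empty MigR1 and at 9.91, 12.8 and 9.45 FPKM with Blimp-1, without overlap; the table does not separate viral from endogenous transcripts. Its log2 difference was 2.26 (SE 0.19, limma adjusted p = 0.0570, or 0.00504 with the replicate number as a block, and 3.61e-12 to 0.9997 over 21 alternatives). CD4 T cell markers were high in each library, and Cd3g, the most abundant, was at 454 to 562 FPKM. Foxp3, which defines regulatory T cells, did not exceed 0.837 FPKM.

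Promoter stretches are shown for 3 receptor genes. Il7r and Il2ra are the pair whose values moved most between libraries. The 250 bases of Il4ra held the one match to the letters searched for Blimp-1, AGNGAAAG. Each stretch is the 250 bases before the RefSeq start, 5′ to 3′ on the gene's strand, in build GRCm38.p6, and capitals mark a motif match. RefSeq promoter sequence was matched for 9 of the 10 genes, all but Il2rb, which was not searched.
Il7r (chr15:9529877-9530126, minus strand): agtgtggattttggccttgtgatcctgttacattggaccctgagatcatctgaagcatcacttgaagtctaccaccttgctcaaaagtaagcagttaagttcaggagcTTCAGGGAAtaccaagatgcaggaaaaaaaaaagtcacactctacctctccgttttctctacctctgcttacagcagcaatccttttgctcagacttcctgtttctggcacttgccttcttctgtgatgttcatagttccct
Il2ra (chr2:11642542-11642791, plus strand): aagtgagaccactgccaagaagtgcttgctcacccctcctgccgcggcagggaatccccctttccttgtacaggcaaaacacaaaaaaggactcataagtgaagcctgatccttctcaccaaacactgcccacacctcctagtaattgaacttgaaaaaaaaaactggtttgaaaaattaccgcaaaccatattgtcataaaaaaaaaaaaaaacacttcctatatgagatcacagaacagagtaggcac
Il4ra (chr7:125552021-125552270, plus strand): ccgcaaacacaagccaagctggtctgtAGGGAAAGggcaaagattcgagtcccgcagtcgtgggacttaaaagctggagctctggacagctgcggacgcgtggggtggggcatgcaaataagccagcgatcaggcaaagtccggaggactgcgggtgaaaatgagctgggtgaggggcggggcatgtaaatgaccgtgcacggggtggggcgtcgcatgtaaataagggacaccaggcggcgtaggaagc
The motifs searched on both strands were AGNGAAAG for Blimp-1, TTCNNNGAA for STAT proteins and CCGGAAGT for ETS factors, in 10 promoter windows of the 9 genes. Among 32851 promoter windows of the same length, 7.30% held the Blimp-1 motif, 7.02% the STAT motif and 2.88% the ETS motif. The Il7r window held 1 match to the STAT letters and the Il4ra window 1 match to the Blimp-1 letters. No other window searched held any of the motifs, and Il2rb had no window. N stands for any base, and the Il4ra match reads AGGGAAAG. Neither the base at N, a G in the Il4ra match, nor the bases around a match were compared with those that Blimp-1 prefers. These are matches of letters, a window without one lacks only those letters, and no binding was measured in this series.

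Activated CD4 T cells expressed 8 of the 10 members at 22.3 FPKM or more in each library, Il15ra at 4.996 to 6.71 FPKM and Il9r at 0.231 to 0.823 FPKM. Il2rg, the shared chain, was highest in each vector, at 288 ± 31.7 FPKM with empty MigR1 and 283 ± 34.2 with Blimp-1 (SD, n = 3 each). Jak3, its partner kinase, came next at 159 ± 32.2 and 179 ± 39.8 FPKM. With empty MigR1 the order went on with Il2ra, Jak1, Il4ra, Il2rb, Il7r, Il21r, Il15ra and Il9r. In that vector Il2rg stood above Jak3, Il21r above Il15ra and Il15ra above Il9r with no overlap of the library values, while the other neighbours in this order overlapped. With Blimp-1 the order was the same except that Il7r came before Il2rb, and Jak3 then also stood above Il2ra, and Jak1 above Il4ra, without overlap.

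**Figure D1:**
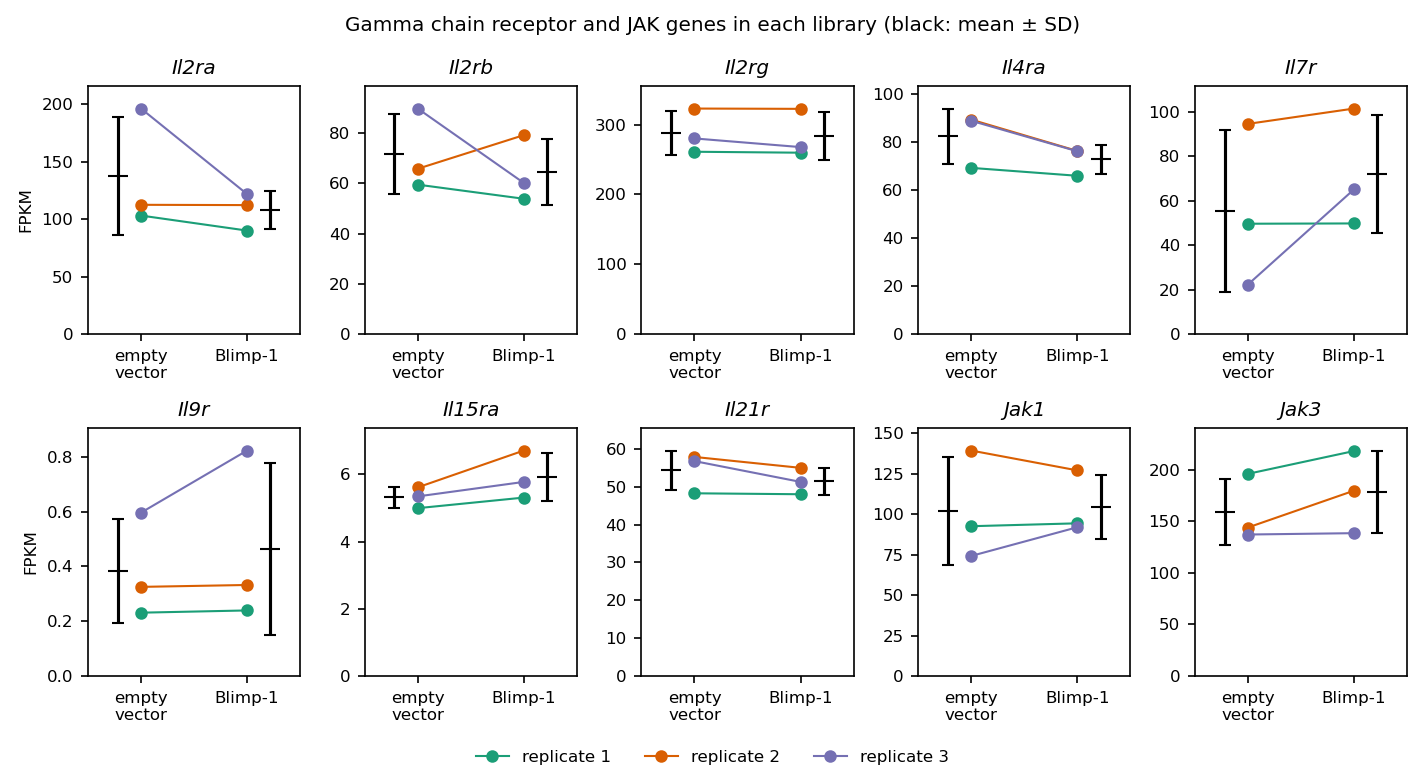
FPKM of the 10 members (vertical axes, each from 0) in the empty vector and Blimp-1 libraries. Each line joins libraries of 1 replicate number and black bars are means ± SD (n = 3); the Il2rg lines are nearly flat, while empty MigR1 replicate 3 has the highest Il2ra, 196 FPKM, and the lowest Il7r, 22.3 FPKM.

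None of the members was called as changed by Blimp-1. Limma on log2(FPKM + 1), adjusted over 10872 genes, called 0 of the 9 members tested as higher and 0 as lower, against 0% of all tested genes in each direction. Of all tested genes, 1.13% had an unadjusted p below 0.05, and none of the 9 members did. With the replicate number as a block, 0 members were again called, against 1 gene higher and 1 lower among all tested, 0.0092% each. The gene called as higher was Prdm1, the transduced gene, which the fit without the block did not call. In the blocked fit 1 member, Il4ra, was among the 20.4% of genes at an unadjusted p below 0.05. No member had library values that did not overlap between vectors, which 2.29% of tested genes showed as higher and 2.34% as lower, 4.63% in all. The 95% intervals of the blocked fit ran from a ratio of 0.649, the lower bound for Il2ra, to 2.41, the upper bound for Il7r. Each member has its own interval, and that of Il2rg, from 0.896 to 1.08, lay well inside these bounds.

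**Figure D2:**
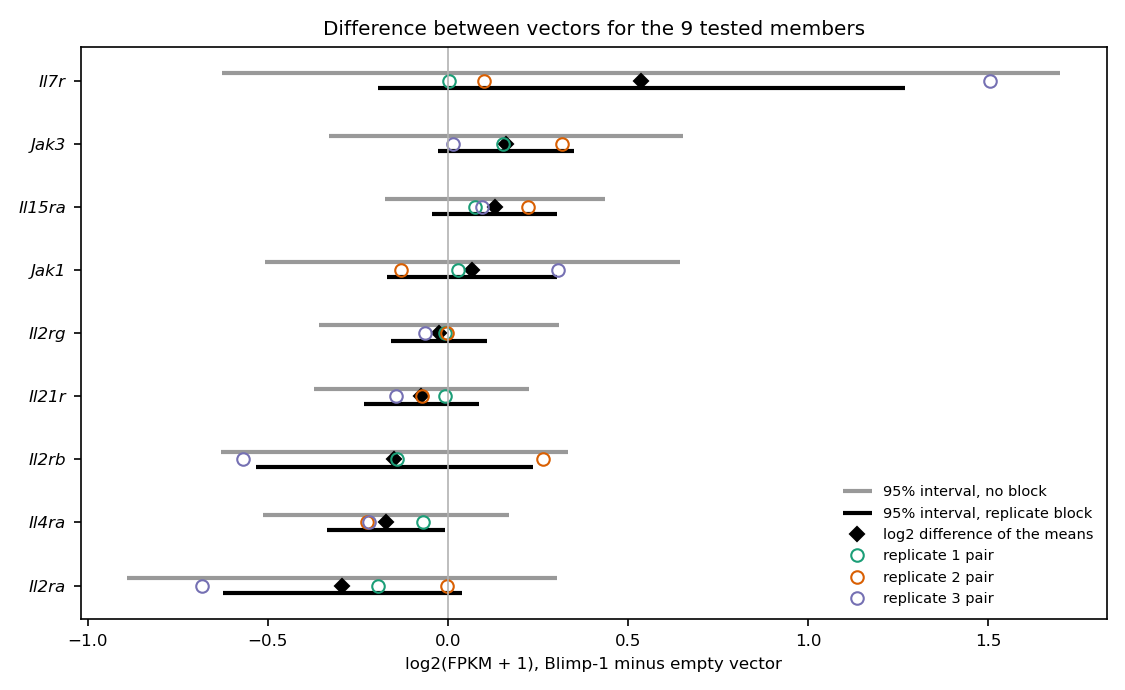
Difference between vectors on the log2(FPKM + 1) scale (horizontal axis) for the 9 tested members. Diamonds are differences of the means, open circles the 3 replicate pairs, and bars 95% intervals from limma without (grey) and with (black) the replicate block; the grey bars all cross 0, and the black bar of Il4ra ends just below it, at -0.008.

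The receptor for IL-2 has an alpha chain (Il2ra), which raises affinity, and a beta chain (Il2rb), which signals and also serves the receptor for IL-15. Il2ra was at 103, 112 and 196 FPKM in empty vector replicates 1, 2 and 3 and at 89.9, 112 and 122 FPKM in Blimp-1 replicates 1, 2 and 3. Empty vector replicate 3 was the high library, and the other 5 lay close together. The log2 difference was -0.29 (SE 0.26, limma adjusted p = 0.998; 0.285 with the replicate block), and -0.19, -0.003 and -0.68 in pairs 1, 2 and 3. Without empty vector replicate 3 the log2 difference was -0.007, and without the whole of pair 3 it was -0.098. Il2rb was at 59.5, 65.8 and 89.8 FPKM with empty MigR1 and at 53.9, 79.2 and 60.2 FPKM with Blimp-1. It was lower with Blimp-1 in pairs 1 and 3 and higher in pair 2. The Il2rb log2 difference was -0.15 (SE 0.21, limma adjusted p = 0.998, or 0.611 with the block). Its sign turned without empty vector replicate 3, to 0.02.

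Il2rg was nearly equal within each pair, at 261 against 260 FPKM in replicate 1, 323 against 323 in replicate 2 and 280 against 268 in replicate 3, empty vector first. The difference between replicate 2 and replicate 1 was far larger than any difference between vectors. Its log2 difference was -0.02 (SE 0.14, limma adjusted p = 0.998, or SE 0.054 and adjusted p = 0.819 with the block). In the blocked fit its 95% interval was 0.896 to 1.08 as a ratio, the narrowest of the 9 members.

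Il4ra, the chain that binds IL-4 and also IL-13, was at 69.3, 89.4 and 88.9 FPKM with empty MigR1 and at 66.0, 76.4 and 76.2 FPKM with Blimp-1. It was lower with Blimp-1 in 3 of 3 pairs, although the ranges of the vectors overlapped. The log2 difference was -0.17 (SE 0.15, adjusted p = 0.998; 0.231 with the block), and it ran from -0.29 to -0.10 over 21 alternatives. IL-4 was neutralised in both groups.

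Il7r, the alpha chain of the receptor for IL-7, was the member with the widest range. It was at 49.7, 94.7 and 22.3 FPKM with empty MigR1 and at 49.8, 102 and 65.2 FPKM with Blimp-1. Replicates 1 and 2 differed little between vectors, and replicate 3 was 2.92 times as high with Blimp-1. The log2 difference was 0.54 (SE 0.50, adjusted p = 0.998; 0.353 with the block), and it was 0.01 without empty vector replicate 3. Only 0.635% of tested genes had a wider range over the 6 libraries than Il7r, at 2.14 on the log2 scale. Il2ra, at 1.12, was exceeded by 9.12%. The 3 genes with a mean of at least 5 FPKM whose centred profile over the 6 libraries was closest to that of Il7r were Ifi214, Slamf6 and Selenop, at Euclidean distances of 0.504, 0.509 and 0.570. The summed level of 6 NK cell markers was also highest in replicate 2 of both vectors and lowest in empty vector replicate 3, at 14.6, 29.6 and 3.76 FPKM with empty MigR1 and 17.0, 37.1 and 14.3 FPKM with Blimp-1, most of it Klrd1, while Ncr1 was listed at 0 in each library. The part of these markers, and of the low depth of empty vector replicate 3, in the Il7r values was not tested. Slamf6, a surface receptor of lymphocytes, was at 26.8, 47.1 and 14.0 FPKM with empty MigR1 and at 23.2, 46.1 and 25.8 FPKM with Blimp-1.

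Il15ra and Il9r were the low members. Il15ra, which presents and binds IL-15, was at 4.996, 5.62 and 5.35 FPKM with empty MigR1 and at 5.31, 6.71 and 5.78 FPKM with Blimp-1, higher in 3 of 3 pairs with overlapping ranges. The log2 difference was 0.13 (SE 0.13, limma adjusted p = 0.998, or 0.343 with the block). This level is a sum over 9 transcripts, and the 2 transcripts that carry the symbol gave 2.49, 3.65 and 1.69 FPKM against 2.83, 3.92 and 1.85 FPKM. The split among the 9 varied widely. One transcript took 48.3% of the sum in empty vector replicate 1 and 2.00% in Blimp-1 replicate 3, and with the highest transcript in place of the sum the sign turned (log2 difference -0.18). Il9r was at 0.231, 0.325 and 0.596 FPKM with empty MigR1 and at 0.239, 0.332 and 0.823 FPKM with Blimp-1, below the filter of 1 FPKM in each library, and was not tested.

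Il21r, the receptor chain for IL-21, varied least. It was at 48.2, 57.8 and 56.7 FPKM with empty MigR1 and at 48.0, 55.0 and 51.3 FPKM with Blimp-1. The values were lower with Blimp-1 in 3 of 3 pairs by small amounts. The log2 difference was -0.07 (SE 0.13, limma adjusted p = 0.998, or 0.539 with the block). Of tested genes, 88.4% had a wider range.

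JAK3 binds the gamma chain, and JAK1 the signalling chain that pairs with it, which for IL-2 and IL-15 is the beta chain. Jak1 was at 92.6, 139 and 74.2 FPKM with empty MigR1 and at 94.4, 127 and 91.9 FPKM with Blimp-1. Replicate 2 was high in both vectors and the sign differed between pairs. The Jak1 log2 difference was 0.07 (SE 0.25, limma adjusted p = 0.998, or 0.716 with the block). It was -0.14 without empty vector replicate 3 and -0.08 without Blimp-1 replicate 2. With the partner library also left out, it was -0.05 without pair 3 and 0.17 without pair 2. Jak3 was at 196, 144 and 137 FPKM with empty MigR1 and at 218, 180 and 139 FPKM with Blimp-1. It was higher with Blimp-1 in 3 of 3 pairs, by ratios of 1.11, 1.25 and 1.01, and replicate 1 was the high replicate in both vectors. The Jak3 log2 difference was 0.16 (SE 0.21, limma adjusted p = 0.998, or 0.296 with the block). It was 0.007 without Blimp-1 replicate 1, which leaves the high empty vector replicate 1 without its partner. Without the whole of pair 1 it was 0.17. In a blocked fit of pairs 1 and 2 alone, Jak3 was the only member called (log2 difference 0.24, adjusted p = 0.0267, against 0.0267 to 0.9999 over 21 alternatives). In that fit, which has 1 residual degree of freedom, 4.97% of all tested genes were called as higher and 6.18% as lower.

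Jak3 has 2 listed transcripts. The larger held 79.1%, 64.4% and 63.7% of its FPKM with empty MigR1 and 74.1%, 62.0% and 66.6% with Blimp-1. Replicate 1 had the largest share in both vectors, and the ranges of the vectors overlapped. The split comes from the authors' assignment of 50-base single reads among overlapping transcripts.

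For all tested members but Il2rb, most of the variation followed the replicate number. The replicate number has more degrees of freedom than the vector, which by itself gives it a larger share. Of the sum of squares of log2(FPKM + 1) over the 6 libraries, the replicate number held 98.0% for Il2rg, 90.0% for Jak1, 84.7% for Jak3 and 80.4% for Il21r. It held 45.4% for Il2rb, the lowest of the 9 members. The vector held from 0.869% for Il2rg to 32.3% for Il15ra. The medians over the 9 members were 67.2% for the replicate number and 12.5% for the vector, beside 75.5% and 9.53% over all tested genes. For Prdm1, by contrast, the vector held 96.5%. The members' median log2 difference was -0.02, beside -0.008 over all tested genes. In 3 of 3 pairs, 3 members were higher with Blimp-1 (Il7r, Il15ra and Jak3) and 4 lower (Il2ra, Il2rg, Il4ra and Il21r), where 22.8% of tested genes were higher and 22.8% lower. Thus 7 of the 9 kept 1 sign over the pairs, beside 45.6% of all tested genes.

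**Figure D3:**
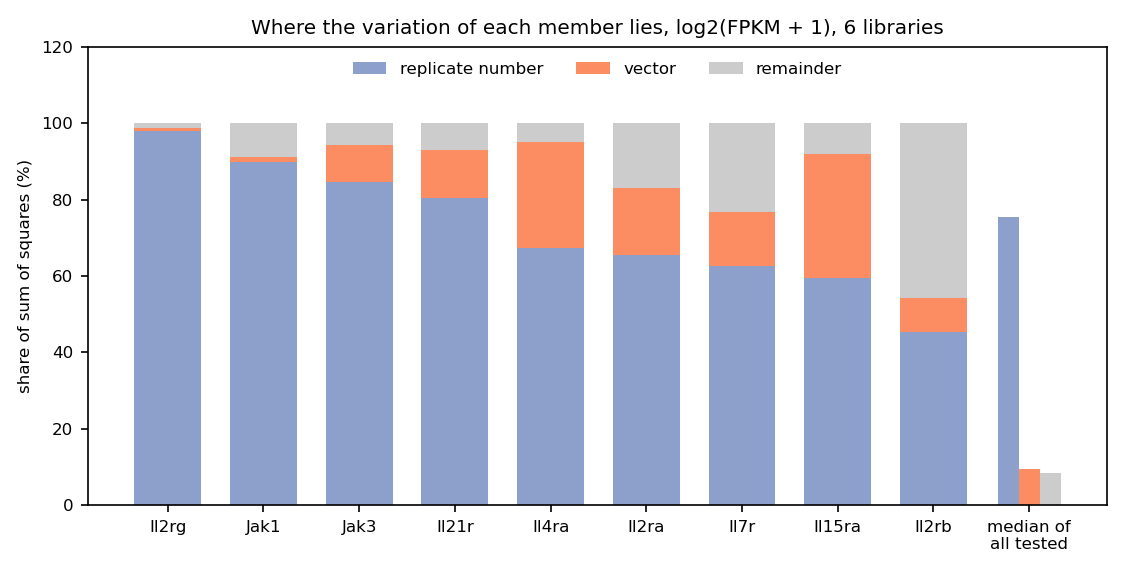
Share of the sum of squares of log2(FPKM + 1) over 6 libraries (vertical axis, percent) that lay with the replicate number, the vector and the remainder, for each tested member, with the medians over all tested genes as separate bars at the right. The replicate number holds the largest part for 8 of the members, and for Il2rb it is about equal to the remainder, at 45.4% against 45.8%.

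Ratios within a library compare members without a change of scaling between libraries. Il7r to Il2ra was 0.482, 0.843 and 0.114 with empty MigR1 and 0.554, 0.906 and 0.535 with Blimp-1. It was higher with Blimp-1 in each pair, and the low value was again that of empty vector replicate 3. Il2ra took 30.8%, 26.4% and 42.6% of the summed FPKM of the 7 receptor chains other than Il2rg with empty MigR1, and 28.7%, 26.0% and 31.9% with Blimp-1. Il2ra to Il2rb was 1.73, 1.71 and 2.18 against 1.67, 1.41 and 2.02, highest in replicate 3 of both vectors. Il2rg stood at 0.779, 0.758 and 0.609 of the summed other 7 chains with empty MigR1 and at 0.829, 0.748 and 0.703 with Blimp-1. Jak3 to Jak1 was 2.12, 1.03 and 1.85 against 2.31, 1.41 and 1.51, so Jak3 exceeded Jak1 in each of the 6 libraries. The ranges of the vectors overlapped for each of these ratios. With 3 libraries against 3, an exact two-sided permutation test cannot go below p = 0.10, and none was run.

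**Figure D4:**
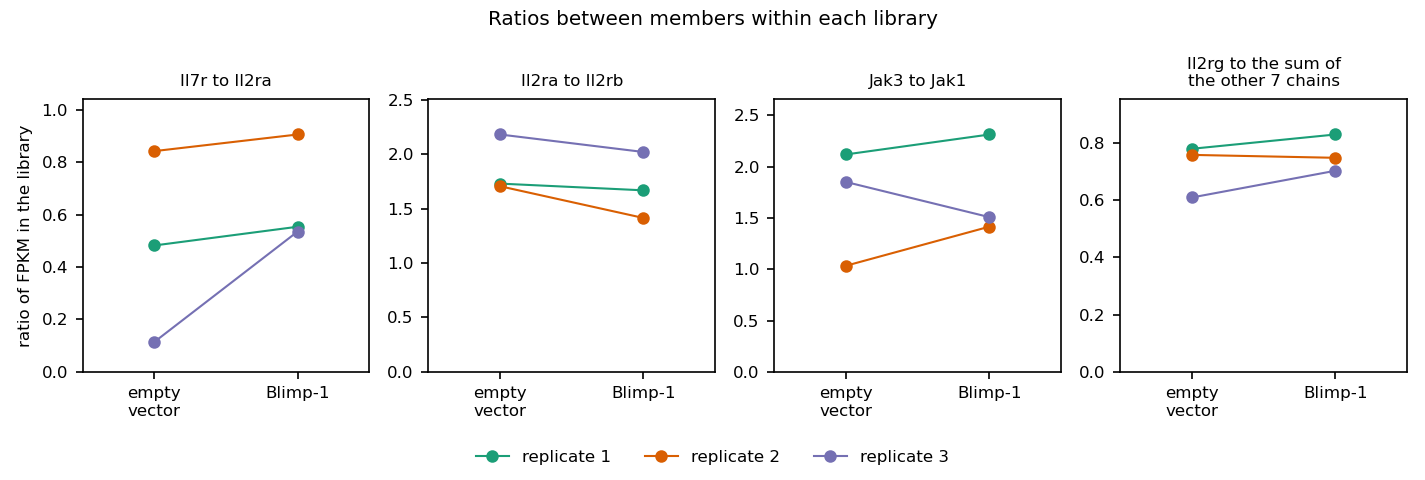
Ratios of FPKM between members within a library (vertical axes, each from 0), with a line for each replicate number. Empty vector replicate 3 has the lowest ratio of Il7r to Il2ra, 0.114, and its Blimp-1 partner, at 0.535, lies beside replicate 1, at 0.554.

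Genes around the receptors were read from lists of 64 other genes of the pathway, of which 56 were tested. Limma called none of them, with or without the block, and 1 had an unadjusted p below 0.05, or 17 of the 56 with the block, beside 20.4% of all tested genes. Their median log2 difference was 0.01. For 6 of them all Blimp-1 libraries lay below all empty MigR1 libraries, beside 2.34% of all tested genes, and for none the reverse, beside 2.29%. In 3 of 3 pairs 16 were higher and 16 lower, beside 22.8% of all tested genes each way. In the blocked fit of pairs 1 and 2 alone, Jak2, Bcl2l1, Ccnd2 and Cdk6 were called as higher and Socs1, Bcl2, Pim2 and Klf2 as lower, 4 of the 56 each way, beside 4.97% of all tested genes as higher and 6.18% as lower. These 8 names were chosen after their values were seen, and the highest adjusted p of each over 21 alternatives was 0.9999.

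RNA of the cytokines themselves was low in these libraries. None of the 6 ligand genes was tested, and Il4, the most abundant, was at 0.134, 0.661 and 1.21 FPKM with empty MigR1 and 0.978, 0.549 and 1.70 FPKM with Blimp-1, followed by Il21 at 0.131 to 0.811 FPKM. The chains and kinases that share subunits with the members include Crlf2, the receptor chain for TSLP that pairs with the IL-7 receptor chain, at 22.2 to 26.0 FPKM. Jak2, the kinase of other cytokine receptors, was at 41.8, 49.5 and 26.2 FPKM with empty MigR1 and at 55.7, 53.9 and 39.3 FPKM with Blimp-1, higher in 3 of 3 pairs. Its log2 difference was 0.36 (SE 0.25, limma adjusted p = 0.998, or 0.160 with the block). It was 0.11 without empty vector replicate 3 and 0.26 without the whole of pair 3.

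Among 5 STAT genes none was called, and 4 were higher with Blimp-1 in 3 of 3 pairs, beside 22.8% of all tested genes. The list median was 0.16. Stat3, the most abundant and the main STAT of IL-21, was at 82.7, 67.6 and 46.9 FPKM with empty MigR1 and at 91.8, 75.6 and 55.2 FPKM with Blimp-1. Stat5b followed at 69.4, 62.4 and 41.7 against 74.7, 62.7 and 49.95 FPKM. Both were highest in replicate 1 and lowest in replicate 3 of each vector, as Jak3 was.

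Among 11 feedback inhibitors and phosphatases none was called, and 2 were higher and 5 lower in 3 of 3 pairs, beside 22.8% of all tested genes each way. Their median log2 difference was -0.132. Ptpn6, which encodes the phosphatase SHP-1, was the most abundant, at 113, 78.5 and 135 against 101, 70.9 and 111 FPKM. Cish, an inhibitor induced by STAT5, was at 48.1, 25.5 and 114 against 49.95, 30.5 and 37.4 FPKM, empty vector first. Thus empty vector replicate 3, the library with the highest Il2ra and the lowest Il7r, also had the highest Cish. The summed FPKM of this list was 607 in that library and 323 to 401 in the other 5.

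Among 12 survival and growth genes none was called, and 2 were higher and 6 lower in 3 of 3 pairs, where 22.8% of all tested genes lay each way. Their median log2 difference was -0.298. Their summed FPKM was 785 in empty vector replicate 3, against 471 to 520 in the others. The most abundant were Pim1, a kinase, at 98.9, 99.7 and 163 against 87.2, 86.8 and 92.5 FPKM, and Mcl1, a survival factor, at 100, 116 and 81.5 against 110, 118 and 90.3 FPKM. Pim1 was high in empty vector replicate 3 as Il2ra was, and Mcl1 was low there as Il7r was. 

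**Figure D5:**
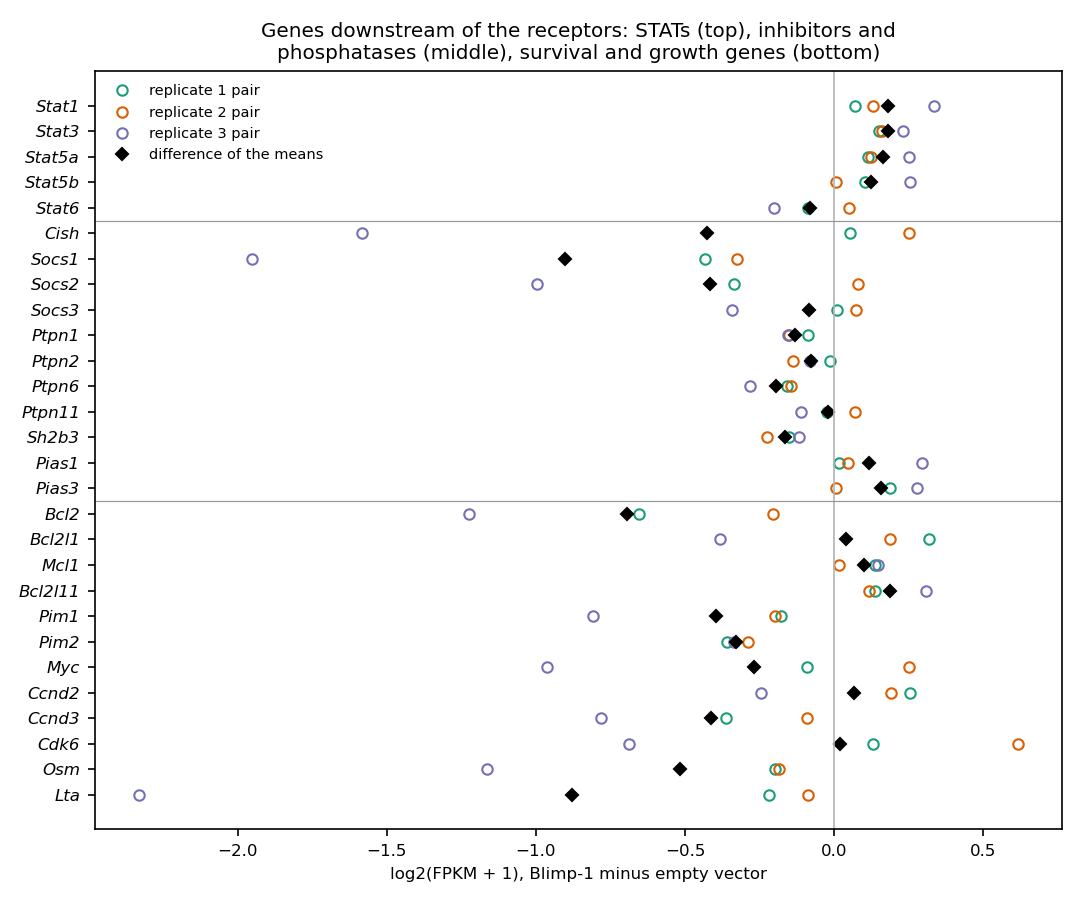
Difference between vectors on the log2(FPKM + 1) scale (horizontal axis) in each replicate pair (open circles) and between means (diamonds) for tested STAT genes, inhibitors and phosphatases, and survival and growth genes. The replicate 3 pair lies farthest to the left for Cish, Socs1, Pim1 and Lta, and the pairs lie close together for Pim2 and Stat3.

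Adaptor and kinase genes downstream of the receptors had a median of 0.004 over 12 tested genes and no call. Pik3cd, the PI3K subunit of leukocytes, was at 114, 117 and 166 against 98.2, 109 and 114 FPKM. Of 13 genes known to regulate transcription of Il7r or Il2ra none was called. Ets1, the most abundant, was at 144, 261 and 118 FPKM with empty MigR1 and at 142, 244 and 149 with Blimp-1. It was highest in replicate 2 of both vectors and lowest in empty vector replicate 3, and Il7r and Jak1 had their highest and lowest values in those same replicates. Klf2, a factor of quiescent T cells, was at 63.3, 106 and 91.1 against 39.9, 70.7 and 76.3 FPKM, lower with Blimp-1 in 3 of 3 pairs (log2 difference -0.49, adjusted p = 0.998; 0.142 with the block). Without Blimp-1 replicate 1 the Klf2 difference was -0.21, and without the whole of pair 1 it was -0.41.

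Markers of other cell types ranged from 0 to levels like those of the members. Cd8b1 was at 7.01 to 10.9 FPKM while Cd8a did not exceed 0.169. B cell markers summed to 0.256 to 2.34 FPKM, led by Cd79a, and myeloid and dendritic markers to 0.543 to 1.44 FPKM, led by Itgam. Mast cell and basophil markers, which would include cells with Il9r, summed to 0.141 to 1.11 FPKM, led by Kit. Gamma delta T cell markers, led by Cd163l1, did not exceed a sum of 1.30 FPKM, and erythroid markers, led by Klf1, one of 0.616. Pecam1, a marker of endothelium that T cells also express, was at 29.0 to 52.9 FPKM, while Cdh5 did not exceed 0.0135. Among the markers of regulatory T cells Ctla4 was the most abundant, at 155 to 212 FPKM. Ikzf2, of the same list, was at 1.06 to 3.19 FPKM, and Foxp3 did not exceed 0.837 FPKM.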

How the data were processed

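RNA was measured in 6 libraries, from 2 ug of total RNA each, as 50-cycle single reads. The deposited table gives 1 FPKM value per RefSeq transcript and library; its header names no unit, and FPKM was taken from the values and from the tool. Per the submitters' processing notes, CASAVA 1.8.2, Cufflinks 2.2, Partek 6.6 and build mm9 were used by the authors; for aligner, annotation release, strand setting and filters, not given in the sources used here. Reads from overlapping or antisense genes and from near-identical copies may therefore be mixed. Transcripts were named by accession from a RefSeq table of GRCm38.p6 (29310 matched; 348 matched by symbol), used for names only, and summed per gene. A gene was tested if 3 libraries or more reached 1 FPKM. The test was two-sided, by limma 3.58.1 in R 4.3.3, with values taken as log2(FPKM + 1), the trend option on, and p-values adjusted by Benjamini-Hochberg over all tested genes at 0.05; fold changes on this scale understate low genes. The fit was tested on simulated data. Exact permutation of 3 against 3 reaches 0.10 at best.

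The labels do not say what a replicate number marks beyond 3 independent biological replicates. After each vector's mean was subtracted, libraries 1, 2 and 3 of the vectors correlated with their namesakes at 0.797, 0.808 and 0.701. The numbers were therefore taken as pairs, and a fit with a replicate block stands beside the unblocked fit. An SE is that of the unblocked fit, which leaves out the pairing, unless the block is named. Named genes were all members, Prdm1, the 2 most abundant genes of each pathway list with any that passed, the most abundant marker of each cell type, and the 3 genes with the profile nearest to that of Il7r, by Euclidean distance. One gene that this rule names is not reported here. Members, lists and tests were chosen with earlier results of these data known. Depth was estimated from the lowest values of genes with 1 transcript and GENCODE transcript lengths. Another label gives the activation as 3 days.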

Additional observations from a re-analysis of the deposited data

How the results depend on the processing

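Over 21 alternatives, 176 of the 189 values of the 9 tested members kept their direction and stayed uncalled, 12 turned sign and 1 was called. Part of this count was fixed in advance. The replicate block, the changes of filter and the fit without the trend option leave each member's log2 difference as it was. The sum of transcripts under the deposited symbol changes only that of Il15ra. The count of genes called as higher went from 0 to 1 with the replicate block, to 1, 3 and 540 with the block and without pair 1, 2 and 3, and to 1 without empty vector replicate 2. The count called as lower went from 0 to 1 with the block, and to 2, 9 and 672 without those pairs. Members called as higher went from 0 to 1 (Jak3) with the block and without pair 3, and none was called as lower under any alternative. The replicate block changed no other member's call. Upper quartile scaling turned the sign of Il2rg (0.035) and Crlf2 (0.056), with a median of all genes at 0.044, and the highest transcript turned that of Il15ra (-0.18). Leaving out 1 library gave log2 differences of -0.31 to 0.022 for Il2rb, -0.12 to 0.060 for Il2rg, -0.14 to 0.31 for Jak1, 0.01 to 1.03 for Il7r, -0.47 to -0.007 for Il2ra and 0.007 to 0.33 for Jak3. The ranges of other named genes with a turn in sign were -0.24 to 0.28 (Bcl2l1), -0.084 to 0.23 (Ccnd2), -0.22 to 0.20 (Cdk6), -0.93 to 0.13 (Cish), -0.063 to 0.048 (Crlf2), -0.18 to 0.40 (Ets1), -0.035 to 0.22 (Mcl1), -0.041 to 0.37 (Stat3) and -0.094 to 0.27 (Stat5b). Leaving out a pair gives the same difference with and without the block. Without pair 1 the sign turned for Bcl2l1 (-0.099), Ccnd2 (-0.028), Cdk6 (-0.037) and Crlf2 (0.018). Without pair 2 it turned for Bcl2l1 (-0.033), Cdk6 (-0.28) and Crlf2 (0.034), and without pair 3 for Il2rb (0.061), Jak1 (-0.052), Cish (0.15) and Ets1 (-0.061). The cause of these changes was not tested. Leaving out pairs without the block, and the sum of Il15ra transcripts under the deposited symbol, were added after the data had been seen.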
